A study of Homo sapiens with 6 samples.

Results

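The regions described here are the places at noncoding genes where a V5-tagged TAF2 was recovered reproducibly on chromatin of HepG2 cells, an established human liver cancer line. TAF2 belongs to TFIID, a multiprotein factor that assembles on core promoters, and V5 is a short peptide tag bound by an antibody. The series holds 6 chromatin immunoprecipitation libraries of the cell line HepG2-TAF2-V5, labelled with tissue liver and cell type HCC, so that control and V5 libraries share the tagged line. For 3 libraries the treatment label is TAF2-V5 ab. For the other 3, the controls, the treatment label is input and the titles say Input DNA, while the library names and the design text say IgG, a nonspecific antibody. No peak list of a control was analysed here, so no background from controls stands beside the values. The series title calls the line a clone, so the results describe 1 clone, and whether each library had its own culture is not stated. The peak lists carry no expression values against which the labelled cell type could be checked.

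The members were chosen by the peaks themselves. Joining peaks of the 3 V5 lists with an overlap of 1 bp or more gave 3783 regions, of which 1390 (36.7%) held peaks of 2 or 3 libraries. Of these reproducible regions, 195 on chromosomes 1 to 22 and X had the summit of their strongest peak inside or within 1000 bp of a RefSeq gene that is not protein-coding, and more than 1000 bp from every protein-coding gene. They made up 14.0% of the reproducible regions (exact Clopper-Pearson 95% interval 12.2 to 16.0%, counting error only). Another 143 reproducible regions had a summit at both kinds of gene and do not belong here. The members nearest to the limits had summits 926 bp from the noncoding gene and 1005 bp from a protein-coding gene, and the nearest regions left out lay at 1156 and 934 bp. Without replicate 2, which gave the longest list, the count was 108. Presence, fold and summit of the peaks set the membership, so these values are given as a description without a test.

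Noncoding genes of several kinds are pooled by this rule, and they are read by different machinery. Long noncoding RNAs (lncRNAs) are transcripts of RNA polymerase II, whose promoters TFIID serves, while 45S ribosomal RNA comes from RNA polymerase I and vault RNA from RNA polymerase III. Many small nucleolar RNAs (snoRNAs), which guide chemical modification of ribosomal RNA, are cut out of the introns of longer host genes. Pseudogenes are copies of genes that mostly no longer code for protein. Of the 195 members, 179 (91.8%) lay at an lncRNA gene, 12 at a pseudogene with no lncRNA, 3 at ribosomal RNA genes and 1 at a gene of type miscellaneous RNA. In 96 members (49.2%) each gene at the summit had a provisional LOC symbol, so the function of much of the set is not known from its names. The gene table held 39124 noncoding genes on these chromosomes, and 202 of them (0.516%) had a member's summit inside or within 1000 bp. By type that was 167 of 18177 lncRNA genes (0.919%), 10 of 15212 pseudogenes, 5 of 1246 transcribed pseudogenes, 10 of 1196 snoRNA genes, 1 of 1911 microRNA genes and 0 of 443 transfer RNA genes. The share was higher in some small classes, with 6 of 49 ribosomal RNA genes (12.2%), 1 of 4 vault RNA genes (25%), 1 of 19 genes of type antisense RNA (5.26%) and 1 of 33 of type miscellaneous RNA (3.03%). The totals of all types keep noncoding genes that lie inside protein-coding genes, where the rule allows no member. Shares by type thus depend on the rule as well as on the peaks. The 6 ribosomal RNA genes are 2 copies of the 45S gene with the genes nested in them, and share 3 members. The median length over the 49 ribosomal RNA genes was 121 bp, so most of that class are short genes and not 45S genes. Among the snoRNA genes, SNORD25 to SNORD31 share the 2 members at their host SNHG1, so they are not separate cases. The lncRNA genes with a member had a median length of 25426 bp and the others 9019 bp.

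The promoter windows that hold a member's summit show what the sequence at these sites looks like. RefSeq windows on GRCh38.p14, from 250 bases before to 50 after an annotated start, were given for a gene at 140 of the 195 members, and in 18 windows the summit of the member fell inside. The 5 highest-ranked of these windows are printed 5′ to 3′ on the strand of the gene, followed by that of MALAT1, which was chosen after its values were seen. Capitals mark the motifs searched on both strands: the TATA box TATAAA, the GC box GGGCGG, the CCAAT box CCAAT, the E-box CACGTG, the cyclic AMP response element TGACGTCA, the sterol regulatory element TCACNCCAC and the forkhead motif TGTTTAC. None of these motifs contains another. The window of PCAT29 is chr15:69591950-69592249 (plus strand), of OLMALINC chr10:100373326-100373625 (plus), of SAP30-DT chr4:173369745-173370044 (minus), of LOC124903058 chr12:131860941-131861240 (plus), of LOC100630923 chr7:102363611-102363910 (plus) and of MALAT1 chr11:65497488-65497787 (plus).
PCAT29: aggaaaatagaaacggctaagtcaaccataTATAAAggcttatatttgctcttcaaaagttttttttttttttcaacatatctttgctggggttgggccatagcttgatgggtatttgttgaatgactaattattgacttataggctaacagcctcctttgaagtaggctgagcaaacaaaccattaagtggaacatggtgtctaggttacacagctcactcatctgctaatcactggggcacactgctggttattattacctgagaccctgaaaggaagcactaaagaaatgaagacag
OLMALINC: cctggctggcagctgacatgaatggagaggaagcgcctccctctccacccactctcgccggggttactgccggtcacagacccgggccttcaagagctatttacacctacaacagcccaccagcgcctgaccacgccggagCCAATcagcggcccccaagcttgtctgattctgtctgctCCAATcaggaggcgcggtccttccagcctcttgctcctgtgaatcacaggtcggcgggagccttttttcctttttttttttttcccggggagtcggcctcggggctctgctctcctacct
SAP30-DT: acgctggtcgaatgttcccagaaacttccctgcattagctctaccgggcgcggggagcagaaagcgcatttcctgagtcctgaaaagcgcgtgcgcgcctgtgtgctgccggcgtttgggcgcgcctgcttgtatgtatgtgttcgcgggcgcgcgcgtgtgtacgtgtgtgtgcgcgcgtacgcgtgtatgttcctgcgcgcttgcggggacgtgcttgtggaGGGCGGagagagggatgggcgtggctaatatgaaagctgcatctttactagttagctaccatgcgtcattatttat
LOC124903058: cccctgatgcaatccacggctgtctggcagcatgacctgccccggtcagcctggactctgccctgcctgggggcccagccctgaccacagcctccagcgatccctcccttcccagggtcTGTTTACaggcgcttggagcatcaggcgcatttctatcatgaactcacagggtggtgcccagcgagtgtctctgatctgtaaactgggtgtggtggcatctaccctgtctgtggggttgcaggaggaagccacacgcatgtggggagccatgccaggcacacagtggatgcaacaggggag
LOC100630923: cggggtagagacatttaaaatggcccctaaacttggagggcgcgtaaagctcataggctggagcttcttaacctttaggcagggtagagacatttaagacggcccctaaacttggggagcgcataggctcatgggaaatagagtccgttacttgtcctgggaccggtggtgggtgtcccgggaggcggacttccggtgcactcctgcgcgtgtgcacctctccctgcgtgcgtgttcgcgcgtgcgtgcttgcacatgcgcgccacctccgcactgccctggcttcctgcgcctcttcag
MALAT1: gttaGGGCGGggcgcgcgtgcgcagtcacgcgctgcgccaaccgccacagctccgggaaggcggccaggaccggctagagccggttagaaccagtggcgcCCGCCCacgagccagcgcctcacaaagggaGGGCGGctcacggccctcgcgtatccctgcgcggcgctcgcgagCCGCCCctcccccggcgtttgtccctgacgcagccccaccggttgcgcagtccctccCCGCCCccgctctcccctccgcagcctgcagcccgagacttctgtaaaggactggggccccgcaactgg

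These windows differ in composition. The window of PCAT29 is 38.7% G and C with 1 TATA box, that of OLMALINC 60% with 2 CCAAT boxes, and that of MALAT1 73.7% with 5 GC boxes and no TATA box. Over the 18 windows the median share of G and C was 59.8% (range 37.0 to 73.7%), beside 50% over the 12829 windows of noncoding genes. A TATA box stood in 2 of the 18 windows (11.1%), beside 15.1% of noncoding windows and 11.5% of all 34961 windows. A GC box stood in 5 (27.8%, beside 25.6% and 45.0%), a CCAAT box in 4 (22.2%, beside 34.4% and 34.6%) and an E-box in 1 (5.56%, beside 5.41% and 7.27%). The forkhead motif stood in 4 windows (22.2%, beside 4.41% and 3.42%), those of LOC124903058, LINC03154, LOC105375170 and LOC124901731. All 4 belong to members with peaks of 2 libraries, and no window of a member with 3 libraries held this motif. Neither the cyclic AMP response element nor the sterol regulatory element matched in the 18 windows, where 1.15 and 1.13% of noncoding windows held them. A match is a description of the letters anywhere in the window, whatever their distance from the start. The TATA box of PCAT29, for example, stands near the 5′ end of its window, far from the start. Also, 18 windows give wide margins for every share.

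Summits close to an annotated start lay more often before it than after it. Of the 140 members with a listed start, 35 (25%, exact 95% interval 18.1 to 33.0%) had the summit within 1000 bp of it, 22 upstream and 13 downstream. In the 250 bp before the start there were 18 summits, and in the 250 bp from the start on there were 4. The other 105 members lay a median of 11381 bp from the nearest listed start of their gene (range 1056 to 405964 bp). The median of the mean rank percentile, defined in the next paragraph, was 65.4 for the 35 near a start and 55.7 for the 105 farther away, and peaks of 3 libraries were present in 16 (45.7%) and 58 (55.2%) of them. Seen from the gene span alone, 164 members had the summit inside a noncoding gene and 31 in the flank, a median of 222 bp outside.

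**Figure D1:**
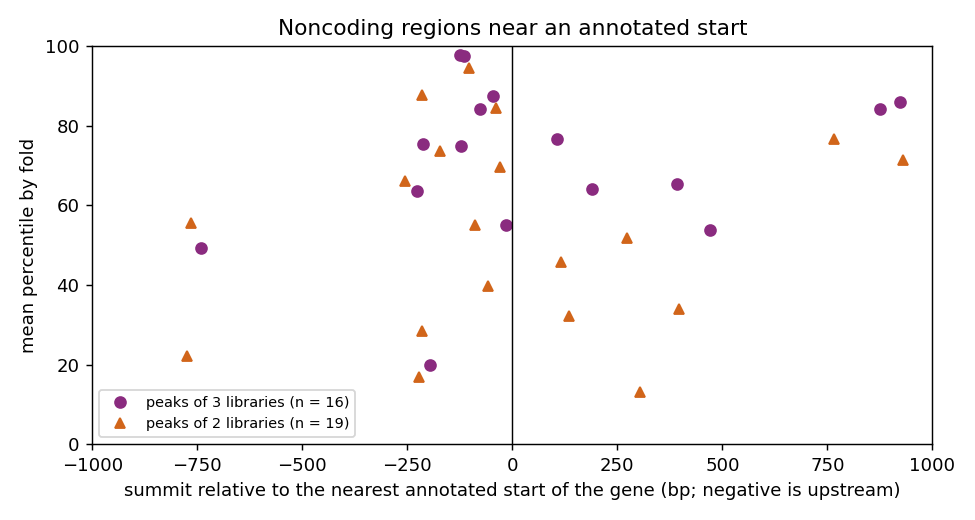
Summits of the 35 members within 1000 bp of an annotated start of their noncoding gene, by distance from that start in bp (x axis, negative is upstream) and mean percentile by fold (y axis), with circles for peaks of 3 libraries and triangles for 2. The 18 summits in the 250 bp upstream of the start outnumber the 4 in the 250 bp downstream.

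The strength of a peak is given as the authors' fold over background and as its percentile by fold within its own list, since folds of different lists are not on 1 scale. Median fold over the members was 5.29 in replicate 1 (150 members, range 3.18 to 11.1), 6.08 in replicate 2 (184 members, 3.17 to 13.4) and 5.46 in replicate 3 (154 members, 3.16 to 14.1). The medians over every peak of these lists were 5.01, 5.25 and 5.03. The mean percentile over the libraries with a peak had a median of 59.2 in the members and 55.9 in all reproducible regions, with 55.5 at protein-coding genes and 59.1 in intergenic regions. It reached 90 or more in 22 members (11.3%) and in 8.35% of all reproducible regions, and stayed below 25 in 21 members (10.8%) and in 13.2%. The percentiles of 1 region in different libraries had a median SD of 14.5 points in the members and 14.6 in all reproducible regions, so that many regions changed place between lists. The widest disagreement among members with 3 libraries was at LNCATV, an lncRNA gene on chromosome 1 (234963287 to 234963828), with percentiles of 6.97, 94.6 and 59.9.

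Peaks of all 3 libraries were present in 98 members (50.3%), beside 46.5% of all reproducible regions, 43.5% at protein-coding genes and 48.2% in intergenic regions. Among all merged regions at noncoding genes, those of a single library included, 195 of 452 (43.1%) were reproducible, beside 33.0% at protein-coding genes and 43.9% in intergenic sequence. Of the 97 members with 2 libraries, 45 lacked replicate 1, 41 lacked replicate 3 and 11 lacked replicate 2. The library without a peak in the region had one within 1000 bp in 5 of these 97 cases. With 3 libraries the median percentile was 68.3 in members and 65.2 in all reproducible regions, and with 2 libraries 48.7 and 49.1. Members were 351 bp wide in the median and all reproducible regions 335 bp. Summits of the libraries lay within 100 bp of each other in 128 members (65.6%), beside 60.02% at protein-coding genes and 74.6% in intergenic regions. The noncoding gene spans with their flanks, outside protein-coding territory, covered 442 Mb and held 0.441 members per Mb, while protein-coding territory covered 1291 Mb and held 0.660 reproducible regions per Mb.

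**Figure D2:**
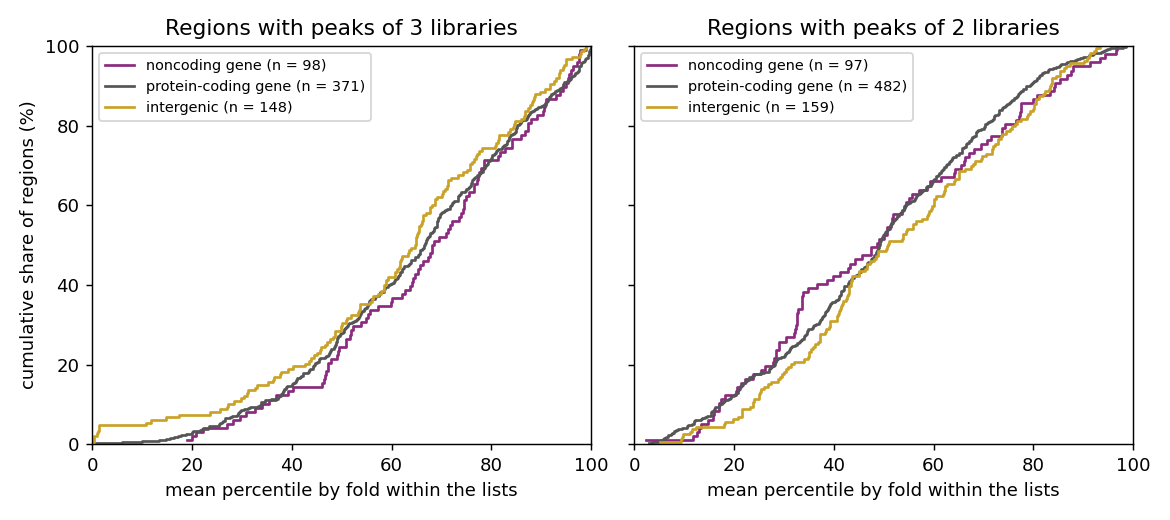
Cumulative share of reproducible regions (y axis, %) by mean percentile by fold within the lists (x axis), for regions with peaks of 3 libraries (left) and 2 libraries (right) at noncoding genes, at protein-coding genes and in intergenic sequence. In the left panel 98 noncoding regions have a median of 68.3, and in the right panel 97 have a median of 48.7.

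Among the lncRNA genes, the highest-ranked member lay inside SIAH2-AS1, an antisense gene named for SIAH2, which encodes a ubiquitin ligase. The region (chromosome 3, 150766015 to 150766303) had folds of 9.88, 12.1 and 14.1 in replicates 1, 2 and 3, a mean percentile of 99.0 ± 0.63 (SD, n = 3), and summits that spread over 37 bp. It was in the top 2% of each list. Its summit lay 4200 bp inside the gene from the annotated start and 2968 bp from SIAH2. On the other side of SIAH2, at a distance of 3695 bp, a second member lay inside LOC101928105 (chromosome 3, 150737269 to 150737646), with folds of 6.31, 10.7 and 6.94.

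Of the members with a summit in a promoter window, the 5 highest-ranked were those whose windows are printed first. At PCAT29, an lncRNA gene named for prostate cancer, the narrow region over the printed window (chromosome 15, 69591983 to 69592178) had folds of 8.91, 10.8 and 9.79 and a mean percentile of 97.8 ± 0.76 (n = 3), with its summit 124 bp before the start. A second member inside the gene, 2499 bp after that start (chromosome 15, 69594495 to 69594880), had folds of 6.60, 7.87 and 6.67. Each of the 3 libraries thus ranked the start above the site within the gene. At OLMALINC the region (chromosome 10, 100373347 to 100373570) had folds of 8.53, 11.7 and 9.66 (97.5 ± 1.5, n = 3), with its summit 114 bp before the start. The nearest protein-coding gene is SCD, which encodes the desaturase that makes monounsaturated fatty acids, and it lay 8636 bp away. SAP30-DT is transcribed away from SAP30, which encodes a subunit of the Sin3 corepressor complex. Its region (chromosome 4, 173369795 to 173369971) had folds of 7.88 and 8.85 in replicates 1 and 2 and no peak in replicate 3, with the summit 102 bp before the start and 1058 bp from SAP30. LOC124903058 had folds of 8.20 and 6.31 in replicates 1 and 3 and no peak in replicate 2. LOC100630923 had 7.43, 6.29 and 8.68 in the 3 libraries, at percentiles of 91.5, 74.5 and 96.1. Replicate 2, with the longest list, was thus the lowest or without a peak at both.

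**Figure D3:**
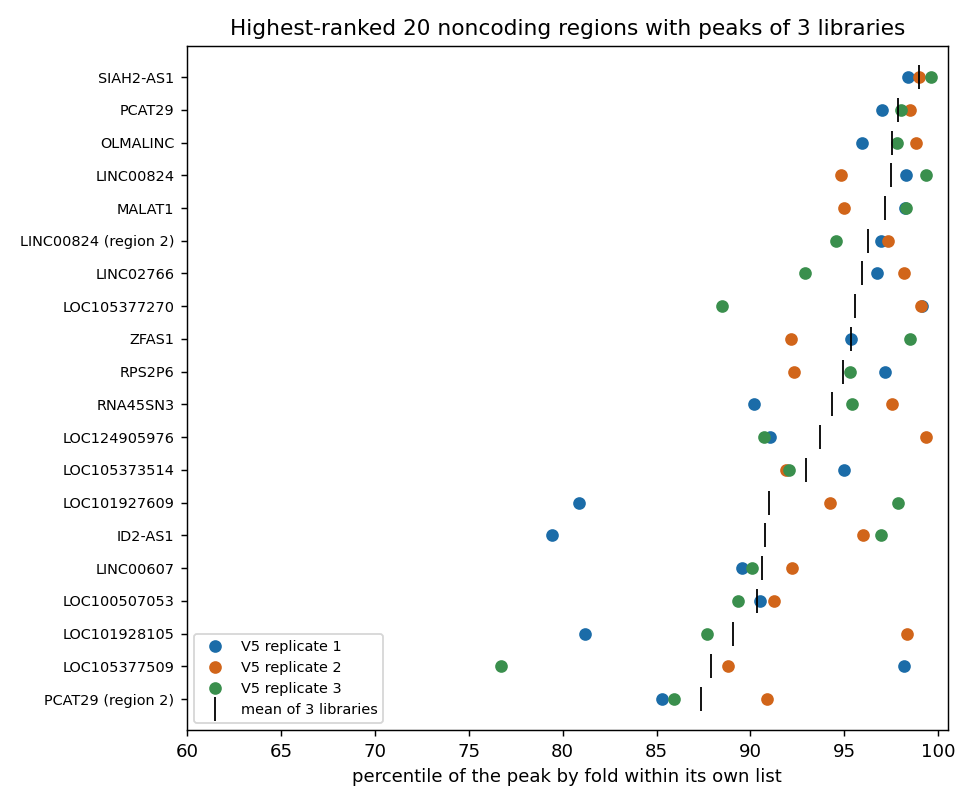
Percentile by fold within its own list (x axis) of the 20 highest-ranked members with peaks of 3 libraries (y axis, by gene), with 1 point per V5 replicate and a bar at the mean. The region inside SIAH2-AS1 lies above the 98th percentile in each library, while those of LOC105377509, ID2-AS1, LOC101928105 and LOC101927609 spread the most.

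Most other members of the highest 20 lay inside lncRNA genes and away from a listed start. A pair of neighbouring regions of LINC00824, an lncRNA gene 159411 bp long on chromosome 8, had folds of 9.82, 8.70 and 11.6 (128556251 to 128556943) and of 8.90, 9.87 and 8.14 (128554836 to 128555461). The nearer of them was 812036 bp from MYC, the growth regulator gene, which was the nearest protein-coding gene for both. LINC02766 (chromosome 1, 12528371 to 12528869) had folds of 8.76, 10.4 and 7.68. LOC105377270 (chromosome 4, 70182531 to 70183136) had 11.1, 12.3 and 6.97, at percentiles of 99.1, 99.1 and 88.5 in their lists. ID2-AS1 (chromosome 2, 8678857 to 8679305) had 6.27, 9.08 and 9.17, with its summit 2874 bp from ID2, which encodes an inhibitor of basic helix-loop-helix factors. The region 323 bp outside LOC124905976, the gene of type miscellaneous RNA (chromosome 2, 15781818 to 15782497), had 7.34, 13.4 and 7.30. Percentiles there were 91.0, 99.3 and 90.7, and the summits lay within 6 bp of each other. LOC105373514, LOC101927609 and LOC105377509 completed these, with mean percentiles of 93.0, 91.0 and 87.9. In regions of 2 libraries the highest mean percentiles among lncRNA genes were 96.5 at LOC107986166, 94.4 at SAP30-DT, 93.4 at LOC105378209 and 91.4 at LOC107987209.

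Several lncRNA genes held more than 1 member. There were 28 noncoding genes with at least 2, and 50 members (25.6%) lay at such a gene. LINC00607, a gene of 231974 bp on chromosome 2, held 4, of which 3 had peaks of 3 libraries, spread over 177 kb. Their mean percentiles ran from 57.0 to 90.6, and the highest (215793720 to 215794263) had folds of 7.13, 8.13 and 7.26. For 3 of these 4 the nearest protein-coding gene was FN1, the fibronectin gene, 181 to 245 kb away. LOC105370003 on chromosome 12 held 4 within 11.7 kb, with mean percentiles from 27.0 to 77.9. LINC00673 on chromosome 17 held 3, each with peaks of 3 libraries, at 46.1 to 71.7. SLC38A4-AS1 held 3 of 2 libraries each, at 16.9 to 33.7. Members that share a gene are neighbours and are not independent of each other.

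Of the 5 widest members, 2 ran along genes of abundant nuclear RNAs and 1 along a snoRNA host gene. MALAT1 makes an abundant RNA of nuclear speckles, and TALAM1 is its antisense gene. Peaks covered 62.8, 62.3 and 54.3% of its 8779 bp in replicates 1, 2 and 3. The region of 5865 bp inside it (chromosome 11, 65498773 to 65504637) had folds of 9.77, 8.72 and 10.1 (97.2 ± 1.9, n = 3), and the strongest summits of the libraries spread over 2806 bp. Replicate 2 had 3 separate peaks there and replicate 1 had 1 long peak. At the start of the gene a narrow region (65497386 to 65497764) had folds of 8.68, 6.87 and 5.89, with its summit 76 bp before the start, in the printed window with 5 GC boxes. Another member toward the far end had 4.02 and 4.11 in replicates 1 and 2. In each of the 3 libraries the strongest peak over the body of MALAT1 had a higher fold than the peak at its start.

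NEAT1, which makes the scaffold RNA of paraspeckles, had lower and patchier peaks. Its region of 2171 bp (chromosome 11, 65424402 to 65426572) had folds of 5.79, 5.52 and 4.84, with a mean percentile of 57.3 ± 15.4 (n = 3). A second member 429 bp outside the lower end (65422213 to 65422442) had 3.54 in replicate 1 and 4.83 in replicate 3. Peaks covered 7.47, 8.28 and 5.05% of the 22743 bp of the gene. None of the peaks over the gene reached farther than 5422 bp from its lower annotated end. From the list of 15 abundant nuclear and regulatory lncRNAs, 14 were in the table and 3 held a member (21.4%, beside 0.919% of all lncRNA genes). These were MALAT1, TALAM1 and NEAT1, of which the first 2 overlap and share members. This list and the gene lists that follow were chosen with earlier results of these data known. Their shares are therefore a description and no measure of enrichment.

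ZFAS1 is a host of SNORD12. Its region of 6283 bp (chromosome 20, 49278532 to 49284814) had folds of 8.37, 8.10 and 10.4 (95.3 ± 3.2, n = 3), and peaks covered 54.5, 51.6 and 60.1% of the gene. A second member (49285535 to 49286012) had 4.82, 4.56 and 4.16. SNHG1 hosts several snoRNAs, and the strongest summits of its members lie among them. Its first member (chromosome 11, 62853847 to 62854516) had 7.45, 5.24 and 5.60, and another (62854587 to 62855413) had 4.81 and 7.13 in replicates 1 and 2. By percentile within the lists, replicate 1 was higher at the first of these neighbours and replicate 2 at the other. SNHG32, host of SNORD48, had a low region 197 bp before its start (chromosome 6, 31834508 to 31834835), with folds of 3.69, 4.58 and 4.25. Of 38 listed snoRNA host genes 34 were in the table and 3 held a member (8.82%, beside 0.516% of all noncoding genes). For SNHG3 and SNHG4 the reproducible summits lay at a protein-coding gene too.

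**Figure D4:**
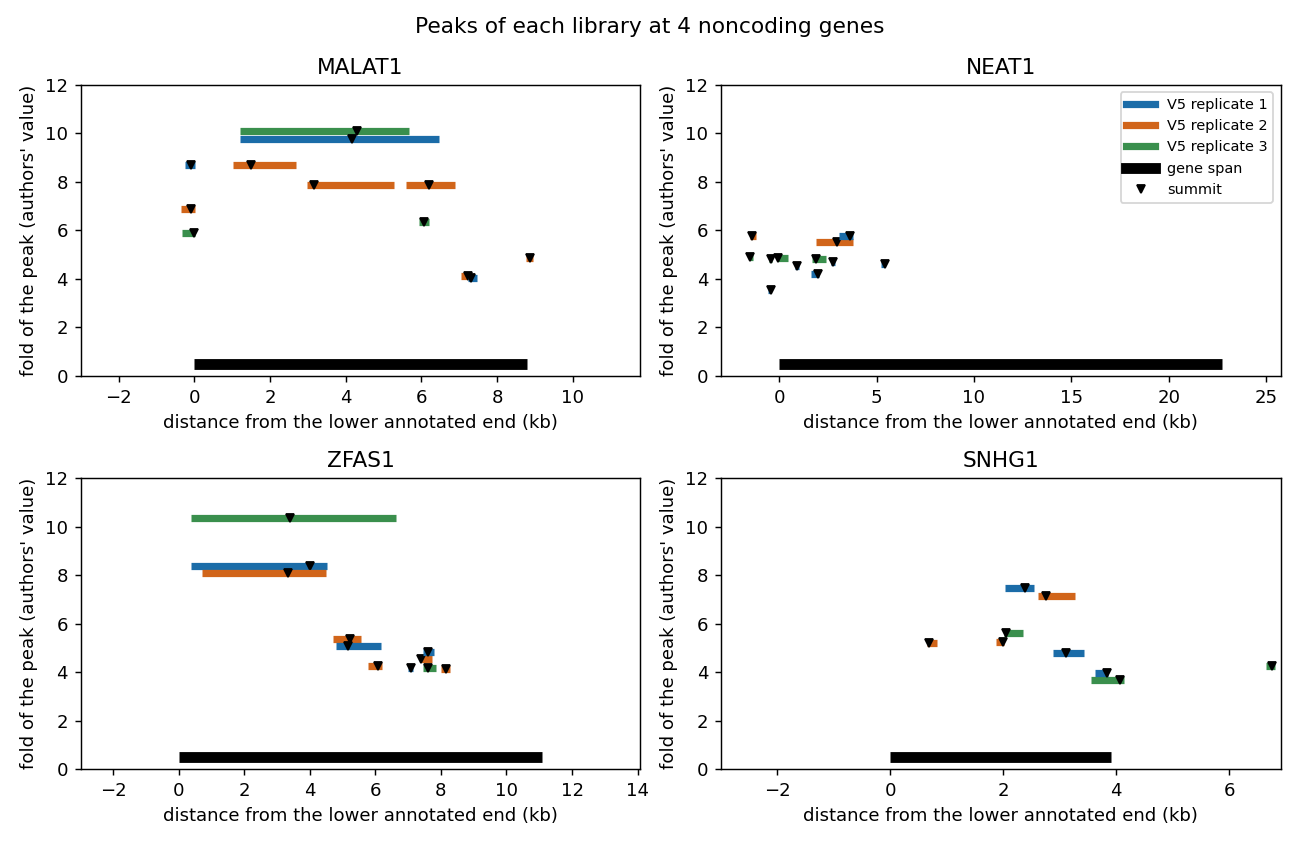
Peaks of each V5 replicate (coloured bars) at MALAT1, NEAT1, ZFAS1 and SNHG1, by distance in kb from the lower annotated end (x axis) and the authors' fold of the peak (y axis), with summits as triangles and the gene span as a black bar. Peaks cover over 50% of MALAT1 and ZFAS1 in every library and under 9% of NEAT1.

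Other wide members lay at LOC105369401, beside NDUFC2-KCTD14, and at CHASERR. LOC105369401 held 3 members on chromosome 11, of 1858, 2748 and 1219 bp, with folds of 6.84, 7.47 and 6.58 in the first (78080378 to 78082235), 5.29, 6.23 and 5.74 in the second and 4.81, 6.61 and 4.10 in the third. Replicates 1 and 3 ranked them in this order, and replicate 2 placed the third above the second. CHASERR makes an lncRNA that restrains its neighbour CHD2, a chromatin remodeller gene. Its region of 1807 bp (chromosome 15, 92883715 to 92885521) had 6.01, 8.30 and 5.16, with the summit 1304 bp after the nearest listed start. Widths over 2000 bp were found in 4 members (2.05%) and in 2.30% of all reproducible regions.

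Genes read by other polymerases gave few members in number, from small gene classes. There were 3 over copies of the 45S ribosomal RNA gene on chromosome 21. At RNA45SN3 (8396636 to 8396825) folds were 7.22, 9.996 and 8.43, with summits within 2 bp of each other. Its 5.8S and 28S genes were counted because the summit lay inside or within 1000 bp of each. At RNA45SN2 a region beside MIR3648-1 (8208364 to 8208628) had 5.25, 6.23 and 9.65, and another (8213119 to 8213350) had 4.89, 4.98 and 5.57. These genes exist in many near-identical copies, so the copy to which these reads belong is uncertain. The vault RNA gene VTRNA1-2, a gene of RNA polymerase III that also lies inside LOC105378198, had a region (chromosome 5, 140718743 to 140719001) with folds of 5.30, 6.10 and 5.89 and a mean percentile of 68.2 ± 7.2 (n = 3). Of 20 listed genes of small structural RNAs, VTRNA1-2 was the one with a member (5%, beside 0.516% of all noncoding genes). None of 23 listed microRNA host genes had a member, and at the 0.919% of all lncRNA genes a list this short would usually hold none. DLEU2, a microRNA host that stood on another list, had members.

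Pseudogenes supplied 12 members, 3 of them with peaks of 3 libraries, and in 6 of the 12 the summit lay in the flank of the copy. The summit was in the flank at SNRPEP4, a copy of a spliceosome gene (chromosome 19, 5577773 to 5577943, folds 8.23 and 11.3 in replicates 1 and 2, 884 bp away), and at RPS2P6, a copy of a ribosomal protein gene (chromosome 18, 70431214 to 70431504, folds 9.02, 8.14 and 8.38, 206 bp away). It was also in the flank at UGT2B27P (6.51 and 7.36 in replicates 1 and 2, 249 bp away) and RPL39P40 (5.50 and 7.54 in the same libraries, 735 bp away). At SMG1P2 it lay inside the pseudogene (5.17, 7.85 and 5.97). Sequence shared with the parent genes makes the placement of reads at the copies themselves uncertain.

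Antisense and divergent genes take their names from a protein-coding neighbour. Of 2061 genes with an antisense symbol 14 held a member (0.679%), and of 592 with a divergent symbol 10 did (1.69%), beside 0.919% of lncRNA genes. Where such a gene overlaps a protein-coding gene or lies within 1000 bp of it, the rule keeps members out. These shares therefore reflect the rule as well as the peaks. After SIAH2-AS1 and ID2-AS1, the highest antisense members were at TM4SF1-AS1 (folds 5.30, 7.30 and 7.04), RAP2C-AS1 (7.10 and 5.49 in replicates 2 and 3) and ZNF503-AS2 (6.74 and 5.40 in the same libraries). After SAP30-DT, the highest divergent members were at JUN-DT (7.18, 8.21 and 5.56), FZD4-DT (7.93, 5.60 and 6.14), FOXF2-DT (4.82, 8.71 and 5.26) and ERICH2-DT (4.30, 7.48 and 6.11). The summit in JUN-DT lay 101358 bp from JUN, so a name that joins 2 genes does not place the region beside the partner. The member at ERICH2-DT also lay 228 bp before the start of LOC100130256.

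Of 35 listed lncRNA genes linked to liver or liver cancer, 33 were in the table and 3 held a member (9.09%), beside 0.919% of all lncRNA genes. This list too was chosen with earlier results of these data known. CCAT1, named for colon cancer, had 2 members on chromosome 8, with folds of 6.47, 7.21 and 4.88 (127215215 to 127215684) and of 5.93 and 7.35 in replicates 1 and 2 (127218806 to 127219291). DLEU2, host of a microRNA pair lost in lymphocytic leukaemia, had 2 as well, with 5.39 and 6.14 in replicates 1 and 2 (chromosome 13, 50078788 to 50079178) and 4.13 and 3.47 in replicates 1 and 3 (50124263 to 50124497). LINC00511 had 3.85, 5.34 and 5.20 (chromosome 17, 72632341 to 72632592). At HNF4A-AS1 and APOA1-AS the reproducible summit lay at a protein-coding gene too, and neither holds a member.

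By the rule every member lay more than 1000 bp from a protein-coding gene, and the distances varied widely. The nearest protein-coding gene was a median of 37068 bp away (quartiles 11029 and 124929 bp), and 26889 bp for intergenic regions. It was beyond 100000 bp in 65 members. A few lay near genes of hepatocyte products and are named here after their values were seen. Members with such a neighbour were not counted or compared with other regions, so these examples give no share. LOC100507053 had folds of 7.25, 7.88 and 7.20 (chromosome 4, 99157524 to 99157816), 13314 bp from ADH4, an alcohol dehydrogenase gene. LOC124905593 had 6.32, 5.67 and 6.95 (chromosome 2, 21070345 to 21071025), 26619 bp from APOB, the gene of the main protein of low-density lipoprotein. LOC101928347 had 5.30 and 5.33 in replicates 2 and 3, 11240 bp from the fatty acid binding protein gene FABP1. LOC107987120 had 3.29 and 6.82 in replicates 1 and 3, 2653 bp from AMBP, and its percentiles of 4.38 and 86.9 were far apart. LOC112268127 had 5.72, 7.26 and 5.60 in a region 1005 bp from SERPINA5, and 4.85 and 8.10 in replicates 2 and 3 in another.

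By chromosome, members were most numerous on chromosome 2, with 28 (14.4%), which held 10.8% of reproducible regions and 7.67% of noncoding genes. Chromosome 20 held 9 members (4.62%), beside 6.86% of reproducible regions and 2.40% of noncoding genes. Chromosomes 18 and X held 1 member each. In 100 kb windows with 5 or more reproducible regions there were 10 members (5.13%), beside 11.9% of all reproducible regions.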

How the data were processed

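The 3 V5 peak lists of HepG2-TAF2-V5 cells were used, 1 per library. The deposited fold of a peak is a ratio over the background of the authors' caller. The deposited −log10 q, a transformed q-value, set alternative thresholds, and the −log10 p was not used. The deposited score equalled the truncated −log10 q times 10, and no result rests on it. Per the labels the build was GRCh38. Which aligner, caller, threshold and control were used is not given in the sources used here. The lists hold 1599, 2557 and 1887 peaks and no read counts, so depth is unknown.

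Peaks were merged and placed as the report says, with RefSeq gene spans and promoter windows of GRCh38.p14. Percentiles are ranks by fold within a list. A dense window is 100 kb with 5 or more reproducible regions. No test was made, since peaks of these lists chose the members. The members, gene lists, motifs and naming rule (highest-ranked 20 members with 3 libraries and 5 with 2, the 5 widest, members at listed genes, and the highest 5 antisense, divergent and pseudogene members) were chosen with earlier results of these data known. Alternatives varied the window, peak threshold, overlap, summit, dense windows and replicates. The code was tested on simulated peaks. Calculations used Python 3.11.15, numpy 2.4.6, pandas 2.3.3, scipy 1.17.1 and matplotlib 3.10.9.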

Additional observations from a re-analysis of the deposited data

How the results depend on the processing

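Read totals are not in the lists, so what depth limits is not known, and 3 libraries give little hold on the spread between experiments. Stricter thresholds left fewer and higher-ranked members, as their construction implies. With −log10 q of at least 3 the median percentile was 68.2. With −log10 q of at least 5 there were 111 members, 56 with 3 libraries, and a median percentile of 77.5. With a fold of at least 5 these values were 112, 53 and 77.4. Leaving out each replicate gave 108 to 143 members, 13.6 to 15.2% of reproducible regions and a median percentile of 64.3 to 66.7, and the lowest count came without replicate 2, where 53 of the 108 shared their summit with a member. A count with 3 libraries could not be given there. Leaving out a replicate can move the strongest summit within the same region, so 53 is not a count of the regions kept. Windows of 0, 250 and 2000 bp gave 181, 186 and 192 members, of which 164, 181 and 181 shared their summit. No paired analysis was possible because no control peak list was analysed and no result came from a test.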

Other observations

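Noncoding genes also had 257 regions with a peak in 1 library, 43 in replicate 1, 143 in replicate 2 and 71 in replicate 3, with median percentiles of 31, 45.8 and 37.5 in their lists. The highest-ranked were at LOC105378208 in replicate 2 (fold 11.2), LOC105370003 and LOC105376413 in replicate 3 (9.38 and 9.09), CLYBL-AS3 in replicate 1 (8.35) and the transfer RNA gene TRF-GAA1-2 in replicate 2 (8.72). LOC105370003 also held 4 members, and LINC00607, with 4 members, had a further peak in replicate 2 alone (8.43). These regions do not meet the rule and were not compared further.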
